A study of Mus musculus with 2 samples.

Results

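Cluster 4 (C4) was the cluster of resting type 1 conventional dendritic cells (cDC1) of the mouse spleen. Its members were the cells that the authors' clustering placed in C4 at a resolution of 0.5, which was 2233 of the 24343 cells of the series. The WT library gave 2202 of them and the Batf3-/- library 31. The WT cells are described first, gene by gene and against the other WT clusters, and the 31 mutant cells are set apart at the end. All cells were live MHCII+ CD11c+ splenocytes, sorted after depletion of T and B cells from female C57BL/6 mice aged 8 weeks that were either wildtype (WT) or Batf3-/-. The mutant lacks the transcription factor Batf3 in every cell and not in DCs alone. Spleens were pooled within a genotype and the experiment was done once, so each genotype is 1 library and no difference between them was tested. CITE-seq read the transcripts of each cell as unique molecular identifiers (UMIs), together with the tags of 11 antibodies bound to its surface (adt).

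Dendritic cells take up antigen and show it to T cells. The cDC1 lineage is known for cross-presentation, in which antigen from dead or infected cells is loaded on MHC class I for CD8+ T cells, and in the spleen many cDC1 carry CD8A. The lineage depends on the transcription factors Irf8 and Batf3, finds Xcl1-secreting lymphocytes through the chemokine receptor Xcr1 and recognises the exposed actin of dead cells through the lectin Clec9a. On maturation, cDCs raise costimulatory molecules and the homing receptor Ccr7.

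Across the series, the median cell held 8374.5 UMIs in the WT library (12224 cells, 122530055 UMIs) and 8516 in the Batf3-/- library (12119 cells, 114517073 UMIs). Batf3 itself was read at 206 counts per 1000000 UMIs (CPM) in the WT library and at 2.49 CPM in the Batf3-/- library. The libraries shared 56 cell barcodes. For 8 of these the WT cell was in C4, and none of the 31 mutant C4 cells had a barcode of the WT library. Among the 20 clusters, the study also places C6, C12, C17 and C18 with cDC1, and C0 is its largest cDC2 cluster.

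C4 made up 18.01% (95% interval 17.3 to 18.7) of the WT library. Its cells were deep, with a median of 15398.5 UMIs (quartiles 12448.2 and 18321, range 834 to 37040) and 3231.5 detected genes, where C0 had a median of 6648 UMIs. Few were assigned to a dividing state, with 2026 cells (92.0%) in G1, 137 (6.22%) in S and 39 (1.77%) in G2M. The authors' reference-based labels called 2201 of the 2202 cells DC, and 1837 (83.4%) matched the CD8+ splenic DC reference. Scrublet, which looks for droplets that resemble 2 cells, marked 253 C4 cells (11.5%) against 616 of all 12224 WT cells. Without the marked cells C4 made up 16.8% of the library. All intervals printed here cover counting error only.

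The transcripts given as markers of this cluster were high in C4 and far lower in C0. Xcr1 was at 509 CPM (502 to 517) in C4 and 80.6 CPM in all other WT cells, a log2 ratio of 2.66 (2.62 to 2.70). Cadm1, an adhesion molecule that cDC1 share with other cell types, was at 298 CPM (292 to 304) against 38.9, a log2 ratio of 2.94 (2.88 to 2.99). Naaa, a lysosomal enzyme that breaks down N-acylethanolamines, was at 1060.5 CPM against 217, a log2 ratio of 2.29 (2.26 to 2.31). C4 held the highest level of all 3 among the 19 WT clusters with at least 50 cells. Clec9a was at 325 CPM (319 to 331) against 55.7, a log2 ratio of 2.54 (2.49 to 2.59), and here C4 ranked after C17, a small cluster of shallow cells where it reached 737 CPM. Cells were clustered on these same transcripts, so ratios of C4 over other clusters describe the cluster and are not a test of it.

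The high levels came from nearly all cells of the cluster. In WT C4 97.1% of cells held an Xcr1 UMI, 96.1% a Clec9a UMI, 89.8% a Cadm1 UMI and 98.6% a Naaa UMI. Thinned to 5000 UMIs per cell, which left out 49 of the C4 cells, the shares were 87.6%, 77.5%, 68.0% and 96.2%. In C0, where 525 of 3176 cells were left out, the thinned shares were 2.34% for Xcr1, 2.57% for Clec9a, 1.47% for Cadm1 and 18.4% for Naaa, and the shares before thinning were 2.90%, 3.94%, 1.98% and 23.1%. A UMI of all 4 markers was present in 1876 C4 cells (85.2%, 83.6 to 86.7), of 3 markers in 273, of 2 in 33, of 1 in 17 and of none in 3. Of the C0 cells, 2237 (70.4%) had none and 1 had all 4.

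**Figure D1:**
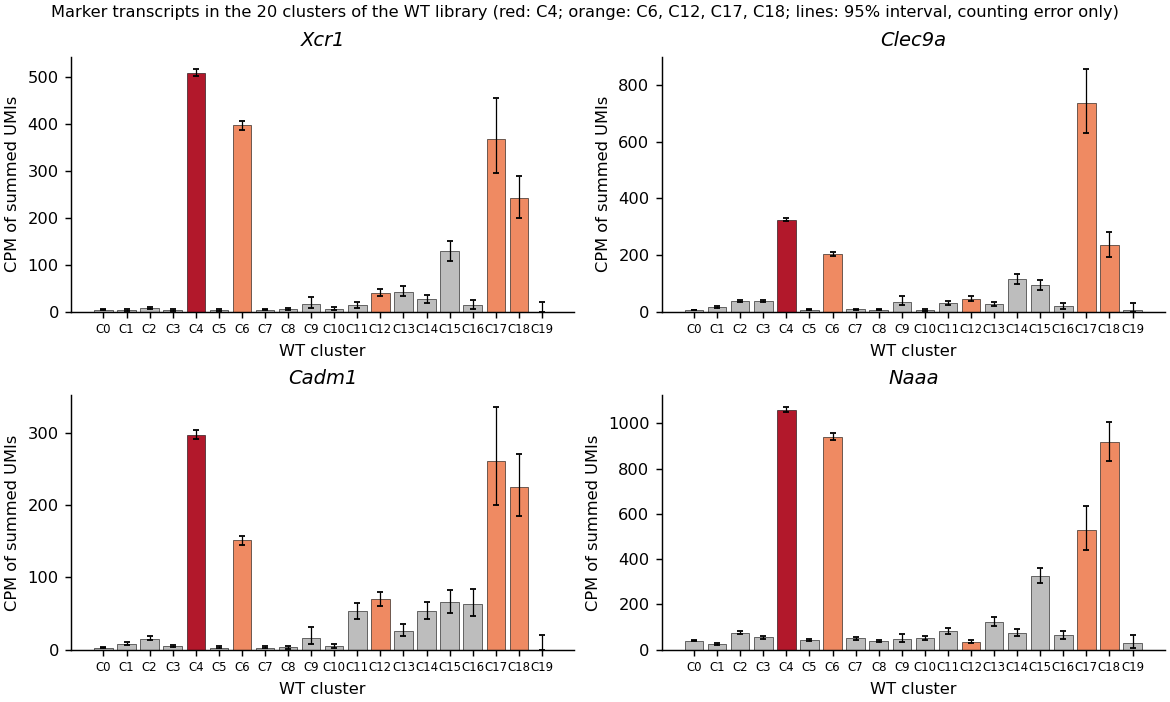
Levels of Xcr1, Clec9a, Cadm1 and Naaa in the 20 WT clusters, as CPM of the summed UMIs of each cluster, with lines for the 95% interval of counting error. C4 (red) is highest for Xcr1, Cadm1 and Naaa and lies below C17 for Clec9a, and most clusters outside cDC1 (grey) lie close to 0.

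Xcr1 lies on the minus strand at chr9:123852315-123862029 (GRCm38), Clec9a on the plus strand at chr6:129408862-129424763, Cadm1 on the plus strand at chr9:47530173-47857637 and Naaa on the minus strand at chr5:92257659-92278170. The 250 bases before the start of 4 genes that were high in C4 are shown 5′ to 3′ on the strand of the gene, from RefSeq on GRCm38.p6. Xcr1 (chr9:123862030-123862279, minus strand) and Clec9a (chr6:129408612-129408861, plus strand) are shown as markers of the cluster, and P2ry14 (first of its 4 windows, chr3:59153493-59153742, minus strand) and Gpr141b (chr13:19732952-19733201, minus strand) as the leading genes whose windows hold a searched motif, which is in capitals.
Xcr1: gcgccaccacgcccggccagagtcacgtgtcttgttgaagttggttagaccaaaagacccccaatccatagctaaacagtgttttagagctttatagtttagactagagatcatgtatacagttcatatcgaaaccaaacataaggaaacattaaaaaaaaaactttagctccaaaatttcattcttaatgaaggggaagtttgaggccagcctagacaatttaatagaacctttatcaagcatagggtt
Clec9a: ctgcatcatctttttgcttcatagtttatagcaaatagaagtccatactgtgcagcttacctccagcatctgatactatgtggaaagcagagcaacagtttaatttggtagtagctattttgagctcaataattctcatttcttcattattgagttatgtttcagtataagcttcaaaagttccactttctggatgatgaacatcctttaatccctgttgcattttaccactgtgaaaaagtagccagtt
P2ry14: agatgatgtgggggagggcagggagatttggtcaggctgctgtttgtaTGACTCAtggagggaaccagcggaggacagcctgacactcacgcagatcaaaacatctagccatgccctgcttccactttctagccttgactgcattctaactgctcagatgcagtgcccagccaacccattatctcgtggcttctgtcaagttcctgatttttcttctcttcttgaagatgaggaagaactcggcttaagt
Gpr141b: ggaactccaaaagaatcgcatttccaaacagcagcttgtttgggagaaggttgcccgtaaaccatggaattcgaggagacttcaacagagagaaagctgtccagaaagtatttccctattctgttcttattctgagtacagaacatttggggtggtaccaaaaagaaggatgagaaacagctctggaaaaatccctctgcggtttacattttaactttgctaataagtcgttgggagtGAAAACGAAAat
The search took TGANTCA, the element bound by the AP-1 family to which Batf3 belongs, the element of interferon regulatory factors such as Irf8, written here as GAAA, any 2 bases and GAAA, and 3 composites, on both strands. The composites were GGAA, any 2 bases and GAAA, then GAAA followed directly by TGANTCA, and last TTTC, any 4 bases and TGANTCA. The last 2 of these contain TGANTCA. Of the 20 genes with the highest ratio in C4, described below, 15 were in the RefSeq table, with 20 windows, since a gene can have several starts. TGANTCA was in 2 of the 20, both of P2ry14, which has 4 windows, and in 6.75% of all 32851 windows of this length. The interferon regulatory factor element was in 1, that of Gpr141b, and in 2.98% of all windows. None of the 20 held a composite, and 2.30%, 0.10% and 0.0974% of all windows did. A match is a description of the letters in this window only.

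Against all other WT cells, 89 of 2553 genes (3.49%) were at least 2-fold higher in C4, and 219 (8.58%) were at least 2-fold lower. Genes had to reach a mean level of 50 CPM over both sides to be counted here and in every later comparison. The median log2 ratio over these genes was -0.15, and the middle 90% ran from -1.40 to 0.80. Beside the 4 markers, the leading genes were receptors, lysosomal and endosomal genes and a chemokine. Cxcl9, which attracts T cells that carry Cxcr3, was at 608 CPM in C4 and 71.3 in the other cells, a log2 ratio of 3.09, with 870 CPM in C18 as the only higher cluster. Cd36, a scavenger receptor, was at 140 CPM against 21.6, and C15 was slightly higher at 148. P2ry14, a receptor for UDP-sugars, was at 290 CPM against 47.1, with higher levels in C17 (317) and in the pDC cluster C14 (312), and the orphan receptor gene Gpr141b at 124 against 19.3. Rab7b, a small GTPase of late endosomes, was at 298 CPM against 52.2, a log2 ratio of 2.51. Ppt1, a lysosomal enzyme that removes palmitate from proteins, was at 1604 CPM against 282, also a log2 ratio of 2.51. Each of these genes was also higher in C6 than the level given here for the other cells together.

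The same comparison put 2 uncharacterised transcripts among the highest ratios, 2310031A07Rik at 118 CPM against 11.4 and Gm36723 at 124 against 15.9. Tlr3, the endosomal sensor of double-stranded RNA, was at 107 CPM against 20.2, a log2 ratio of 2.41. Cst3, which encodes the protease inhibitor cystatin C, was at 23937 CPM against 5569, a log2 ratio of 2.10. Snx22, Slco3a1, Pdia5 and Gcsam were also among the leading 20, with log2 ratios from 2.34 to 2.47. Of the 10 lowest ratios, 5 were those of genes expressed in dividing cells, Pclaf, Top2a, Birc5, Mki67 and the histone gene Hist1h2ap. Pclaf, a PCNA-binding factor of replicating cells, was at 4.04 CPM in C4 and 161 in the other cells, a log2 ratio of -5.32. Top2a was at 5.85 against 127, Birc5 at 5.62 against 99.2 and Mki67 at 11.8 against 134. The others were Ifitm1, AC140186.1, Cd7 at 20.1 CPM against 252, S100a4 at 97.5 against 1199 and the fatty acid binding protein gene Fabp5 at 21.1 against 248. These 5 were highest in different clusters, such as Cd7 in C16 at 1089 CPM and AC140186.1 in the pDC cluster C14 at 311.

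No gene was confined to C4. Of 2346 genes with at least 50 CPM in C4, 47 (2.00%) had their highest WT level there, and their lead over the next cluster was at most 1.46-fold. Tm9sf2 was at 148 CPM against 101 in C16, and Slc25a20, a mitochondrial carnitine carrier, was at 70.9 against 49.0 in C6. Psap, the precursor of the lysosomal saposins, was at 4043 CPM against 3504 in the next cluster, and Mycl at 145 against 135 in C6. Set against the highest cluster outside the 5 cDC1 clusters, the ratios were wider. Pianp was 6.02-fold, Plpp1 4.98-fold, Cxcl9 4.72-fold, Cadm1 4.55-fold, Xcr1 3.97-fold, Tlr3 3.96-fold and Tlr11, a receptor for microbial profilin, 3.54-fold above that cluster. That cluster was C11 for Pianp, C2 for Cxcl9 and C15, the study's monocyte cluster, in which Scrublet marked 17 of 145 cells, for the other 5 of these 7 genes.

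Genes were then grouped by role. A listed gene can pass the minimum through the side where it is high alone, so for the lists most affected the count over all members with more than 3 UMIs on a side is given too. With no minimum level, 4.80% of 15785 genes were 2-fold higher in C4 than in the other WT cells and 20.9% lower. Of 20 genes listed for cDC1 identity, 16 passed the minimum, 13 were at least 2-fold higher in C4 than in the other WT cells and 0 lower, with a median log2 ratio of 2.31. Of all 20, 17 were higher. The 3 between these limits were Id2, an inhibitor of E proteins needed by several lineages, at 997 CPM against 546, Wdfy4, which cDC1 need for cross-presentation, at 512 against 269, and Batf3 at 238 against 194. The log2 ratio of Batf3 was 0.30, so its transcript was nearly as high in the other WT cells as in C4. Below the minimum lay Cd207, the lectin langerin, at 56.9 CPM against 7.66, Tlr11 at 80.3 against 14.9, Ly75 at 42.2 against 18.1 and Itgae, the CD103 integrin chain, at 33.6 CPM with a log2 ratio of 3.25. The cDC2 list gave the opposite picture, with 0 of 11 genes higher and 10 lower and a median of -3.29, where 6 of the 11 passed through the other cells alone. Of all 20, 18 were lower and 0 higher. Sirpa, which encodes CD172A, was at 16.4 CPM against 159, Tmem176b at 56.9 against 517, Zeb2 at 17.2 against 165 and Ltb at 71.3 against 488. Clec12a was the exception at 138 CPM against 76.5.

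Of the lineage transcription factors, 16 passed the minimum, with 2 higher, 5 lower and a median of -0.39. Irf8 was at 1970 CPM in C4 and 474 in the other cells, a log2 ratio of 2.06, and was higher only in C14, the pDC cluster, at 2960. Mycl, a Myc family factor that supports cDC1 expansion, was at 145 against 53.5. Lower in C4 were Zeb2, Relb at 65.0 against 271, Tcf4, the E protein of pDCs, at 36.8 against 135, Klf4 at 59.6 against 189 and Runx3 at 63.2 against 180. Among the 16, 2 passed through the other cells alone, Zeb2 and Tcf4. Over all 30 members, 3 were higher and 9 lower, where 4.80% and 20.9% of 15785 genes with no minimum level were. Spi1, which encodes PU.1, was at 337 CPM with a ratio of -0.37, and Zbtb46, a factor of all cDCs, at 60.9 with 0.19.

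For antigen uptake, 4 of 26 measured genes passed the minimum, with 3 higher and 1 lower. Those higher were Clec9a, Cd36 and Havcr2, which encodes the phosphatidylserine receptor TIM-3, at 212 CPM against 98.3, and the lower gene was Cd209a. Among the 4, 1 passed through C4 alone and 1 through the other cells alone. Over all 25 members with more than 3 UMIs on a side, 5 were higher and 12 lower, with a median of -0.58. Among 30 genes of cross-presentation and MHC class I that passed, 1 was higher, 4 were lower and the median was 0.12. Of the 30, 3 passed through the other cells alone. Over all 34 members, 1 was higher and 4 lower, with a median of 0.02. The class I genes H2-D1 at 2190 CPM (log2 ratio -0.09), H2-K1 at 1604 (-0.43) and B2m at 1610 (-0.52) were not raised in C4; reads of the similar class I genes can be misassigned among them. Psmb8 and Psmb9, subunits of the immunoproteasome, had ratios of 0.36 and 0.69, and the peptide transporter genes Tap1 and Tap2 had 0.63 and 0.69. Among the lower genes were Cybb, the catalytic subunit of the phagocyte NADPH oxidase, at 26.8 CPM against 281, Syk and Rac2. Cybb was 1 of the 3 that passed through the other cells alone. Cyba, the other membrane subunit of that oxidase, was at 868 CPM with a ratio of -0.52, so low levels were not shared by all its subunits.

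All cells had been sorted as MHCII+. Of 13 MHC class II genes that passed, 1 was higher, 1 lower and 11 between, counts near the shares of all genes given above, with a median of 0.22. Cd74 was at 21339 CPM (0.25), H2-Ab1 at 11346 (0.31) and Ciita, the master regulator of the class II genes, at 484 (0.22). The exceptions were Cst3 and H2-DMb2, a chain of the peptide-loading factor H2-DM, at 82.2 CPM against 306. Its paralogue H2-DMb1 was at 578 against 364, so the 2 beta chain genes of H2-DM had ratios of opposite sign. Of 21 lysosome and phagosome genes, 4 were higher (Psap, Ppt1, Naaa and Npc2) and 3 lower (Ctsa, Ctsc and Lamp1), with a median of -0.08. Among the 21, 2 passed through the other cells alone. Over all 38 members, 6 were higher and 9 lower, where 4.80% and 20.9% of 15785 genes with no minimum level were. Psap was at 4043 CPM against 1412 and the cholesterol carrier gene Npc2 at 656 against 328.

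Among Toll-like receptors and their adaptors, 7 of 27 passed and Tlr3 alone was at least 2-fold higher. Tlr3 passed the minimum through C4 alone. Over all 27 members, 3 were higher and 6 lower, where 4.80% and 20.9% of 15785 genes with no minimum level were. Tlr11 and Tlr12, the profilin receptors, lay below the minimum at 80.3 CPM (log2 ratio 2.43) and 39.8 CPM (2.11), and Unc93b1, which carries endosomal receptors to their compartment, was at 387 CPM (0.24). Tlr7 was at 1.43 CPM against 15.9 and Tlr5 at 0.41 against 4.80. A Tlr3 UMI was present in 68.3% of C4 cells (38.3% thinned) and in 3.02% of C0 cells (2.23% thinned). Of 9 chemokine and chemokine receptor genes, Cxcl9 and Xcr1 were higher and 5 lower, with a median of -1.29. The lower ones were Ccl5 at 104 CPM against 1004, the oxysterol receptor gene Gpr183 at 13.1 against 113, Ccr7 at 41.9 against 172, Ccl3 and Ccl4. Among the 9, 4 passed through the other cells alone. Over all 25 members, 3 were higher and 14 lower. Cxcr3, the receptor for Cxcl9, was at 37.0 CPM in C4 against 9.77, below the minimum.

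Of 16 costimulation and maturation genes that passed, 0 were higher and 11 lower, and 7 of the 16 passed through the other cells alone. Of all 30, 21 were lower and 0 higher. Fscn1, an actin-bundling protein of mature DCs, was at 12.3 CPM against 96.0, Il4i1 at 28.0 against 198, Relb at 65.0 against 271 and Traf1 at 162 against 417. Cd86 went the other way within these limits, at 225 CPM against 121 (0.89), while Cd83 at 237 CPM (-0.02) and Cd40 at 46.8 CPM (-0.40) were close to the other cells. Of 7 inhibitory receptors and ligands, Havcr2 and Btla, at 169 CPM against 49.8, were higher, and Siglecg, at 38.5 against 207, and Sirpa were lower. Among the 7, 2 passed through the other cells alone, Siglecg and Sirpa, and 1 through C4 alone. Over all 17 members with more than 3 UMIs on a side, 3 were higher and 9 lower. Of 14 growth factor and cytokine receptors, 0 were higher and 1 lower, again near the shares of all genes, and that was Il2rg at 19.3 CPM against 133. Among the 14, 5 passed through the other cells alone, Il2rg included, and 1 through C4 alone. Over all 24 members, 0 were higher and 7 lower, with a median of -0.45. Flt3, the receptor for the growth factor on which cDCs depend, was at 168 CPM (0.31), and Ifngr1, a chain of the interferon-gamma receptor, at 565 (0.79). Of 15 adhesion genes, 3 were higher and 0 lower. They were Cadm1, the tetraspanin gene Cd81 at 474 CPM against 123, and Cd24a at 177 against 65.9. Among the 15, 1 passed through C4 alone, Cadm1. Over all 24 members, 5 were higher and 4 lower, where 4.80% and 20.9% of 15785 genes with no minimum level were. The 4 S phase and 4 G2M genes that passed did so through the other cells alone, and of all members 37 of 40 and 10 of 10 were lower.

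**Figure D2:**
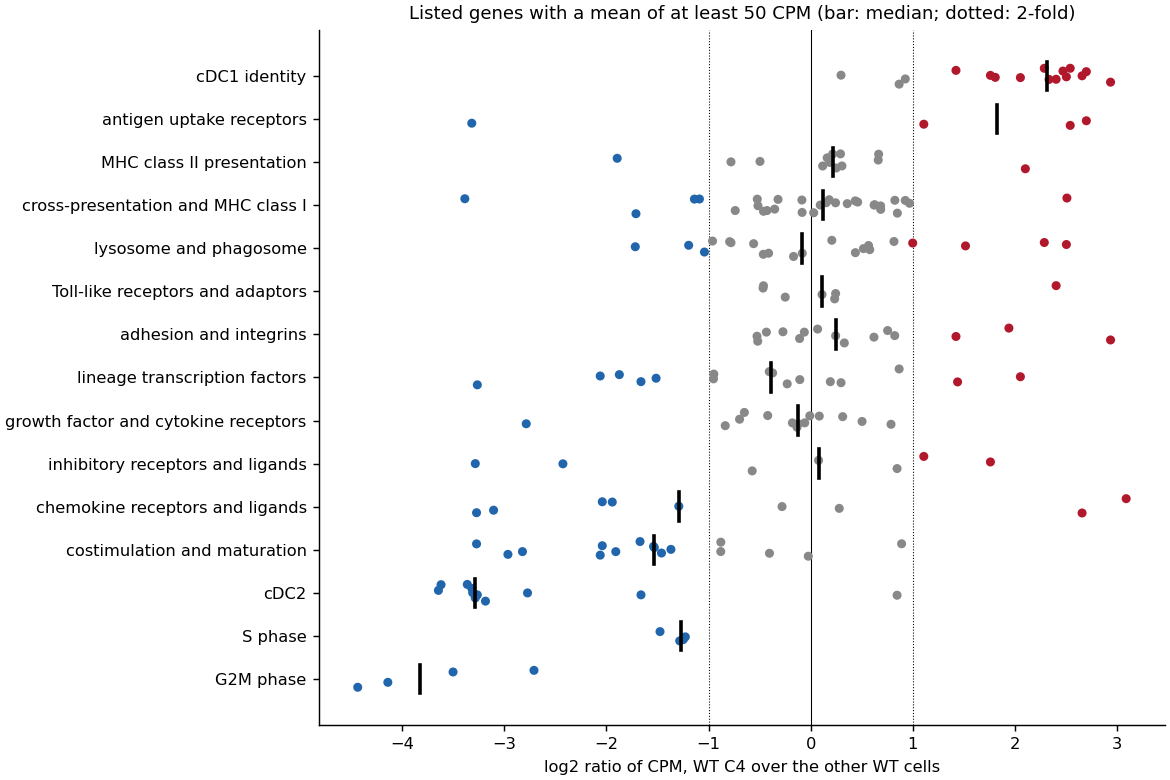
Log2 ratio of CPM in WT C4 over the other WT cells for each listed gene that reached a mean of 50 CPM (red at least 2-fold higher, blue at least 2-fold lower, grey between), with a bar at the median of each list. The cDC1 identity genes lie around a median of 2.31 and the cDC2 genes around -3.29, while the MHC class I and II lists centre near 0.

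Markers of other cell types were low but not all absent. The 5 measured T cell genes summed to 2.58 CPM in C4 against 28.3 in the other WT cells, the 5 neutrophil genes to 2.78 against 134, the 7 NK cell genes to 33.2 against 350 and the 6 B cell genes to 33.4 against 54.8. For NK cells the defining genes Klrb1a and Ncr1 were at 0, and for B cells Ms4a1 was at 27.8 CPM. The 13 monocyte and macrophage genes summed to 532 CPM against 1119, and Lyz2 alone gave 312 CPM, against 18.98 CPM in C0. The 5 erythroid genes summed to 173 CPM in C4, 522 in the other WT cells and 12.1 in C0. The beta-globin gene Hbb-bs was at 113 CPM in C4 and 4.03 in C6. An Hbb-bs UMI was present in 7.95% of C4 cells and 4.16% of C0 cells (3.72% and 3.06% thinned, as described above), and a single C4 cell held 2105 of them. The part of these transcripts in the other values was not tested.

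C6, a cluster of 797 WT cells of which 13 were in G1, had the fewest genes apart from C4 among the 5 clusters compared. Of 2500 genes, 32 (1.28%) were at least 2-fold higher in C4 than in C6 and 146 (5.84%) lower, and the median log2 ratio was -0.12. None of 17 cDC1 identity genes that passed was 2-fold apart in either direction, with a median of 0.24. Over all 20 members, 2 were higher in C4 and 0 lower, with a median of 0.39. Irf8 was at 1970 CPM in C4 and 1895 in C6, Gcsam at 103 in both, and Cadm1 at 298 against 151, a log2 ratio of 0.98. The 12 S phase and 5 G2M genes that passed did so through C6 alone. Of all members, 39 of 40 S phase and 10 of 10 G2M genes were lower in C4 and 0 higher. Of 13437 genes with no minimum level, 9.97% were lower and 4.64% higher. Pclaf was at 4.04 CPM against 334, Mki67 at 11.8 against 245 and the microtubule regulator gene Stmn1 at 32.8 against 673.

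Outside the cell cycle, the intermediate filament gene Vim was at 226 CPM in C4 and 563 in C6, a ratio of -1.32. The genes past the minimum that were higher in C4 than in C6 were few and did not belong to the cDC1 list. Hbb-bs had the highest ratio, 4.81, and is an erythroid gene whose uneven spread over C4 cells was given above. Apoe, which carries lipids, was at 172 CPM against 35.4, Apol7c, an apolipoprotein L gene, at 849 against 274 (1.63), Cxcl9 at 608 against 206 (1.56) and Serpinb6b at 214 against 66.7. Among 7 costimulation and maturation genes that passed, 2 were higher and 0 lower, Cd83 at 237 CPM against 105 (1.18) and Traf1 with a ratio of 1.09. Over all 30 members, 14 were higher and 0 lower, with a median of 0.75. With no minimum level, 4.64% of 13437 genes were higher and 9.97% lower. Ccr7 was at 41.9 CPM against 9.14 and Cd40 had a ratio of 1.26, both below the minimum. With G1 cells alone on both sides, which leaves 13 cells of C6, 53 genes were higher and 102 lower.

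C12, with 394 WT cells, was much further away. Of 2393 genes, 472 (19.7%) were higher in C4 and 475 (19.8%) lower, and the middle 90% of log2 ratios ran from -3.00 to 1.91. Tlr3 was at 107 CPM in C4 and 1.68 in C12 (5.99), Rab7b at 298 against 7.75 (5.26), Naaa at 1060.5 against 34.7 (4.93), Xcr1 at 509 against 39.8 (3.68) and Mycl at 145 against 12.1 (3.58). Of 17 cDC1 identity genes 13 were higher in C4, with a median of 2.66, and 8 of the 17 passed through C4 alone. Over all 20 members, 16 were higher and 2 lower, where 18.8% and 14.6% of 13381 genes with no minimum level were. The 2 that were lower were Id2, at 997 CPM against 2158, and Ly75, which encodes the endocytic receptor DEC-205, with a ratio of -2.36. Cd8a was close, at 442 CPM against 350 (0.33). Ifngr1 was at 565 CPM against 61.3, and the ratio for Havcr2 was 3.34.

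The maturation genes ran the other way. Of all 30 costimulation and maturation genes, 27 were lower in C4 than in C12 and 1 higher, where 14.6% and 18.8% of 13381 genes with no minimum level were. Of the 26 that passed the minimum, 17 did so through C12 alone. Ccr7 was at 41.9 CPM in C4 and 1935 in C12, Ccl5 at 104 against 4753, Fscn1 at 12.3 with a ratio of -6.28, and Il12b, a subunit of interleukin 12, at 9.72 against 471. Tnfrsf4, which encodes OX40, was at 2.20 CPM against 403 and the tetraspanin gene Cd63 at 8.60 against 837. Cd40 and Cd83 had ratios of -2.92 and -2.10, while Cd86 was the 1 gene higher in C4, at 225 CPM against 89.0.

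Antigen presentation was compared next. For MHC class II, 7 of 15 genes were higher in C4 than in C12, with a median log2 ratio of 0.88, among them H2-DMb1 (3.17), the ubiquitin ligase gene March1 (3.11), H2-DMa (2.37), Ciita (2.14) and H2-Ab1 (1.68), and 2 were lower. Of 28 genes of cross-presentation and MHC class I that passed, 5 were higher, 7 lower and 16 between, with a median of -0.51, and these counts are near the shares of all genes against C12. H2-K1 (-1.43), B2m (-1.44), H2-Q7 (-1.65), Psme2 (-1.46) and Nlrc5, the regulator of the class I genes (-3.10), were among the lower ones. Mitochondrial and ribosomal protein genes took 28.7% of UMIs in C4 and 21.0% in C12, and leaving them out of the totals moves every log2 ratio of C4 over C12 by 0.15. It moves those over C17 by 0.20 and over C18 by -0.21, and the others given here by at most 0.04.

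**Figure D3:**
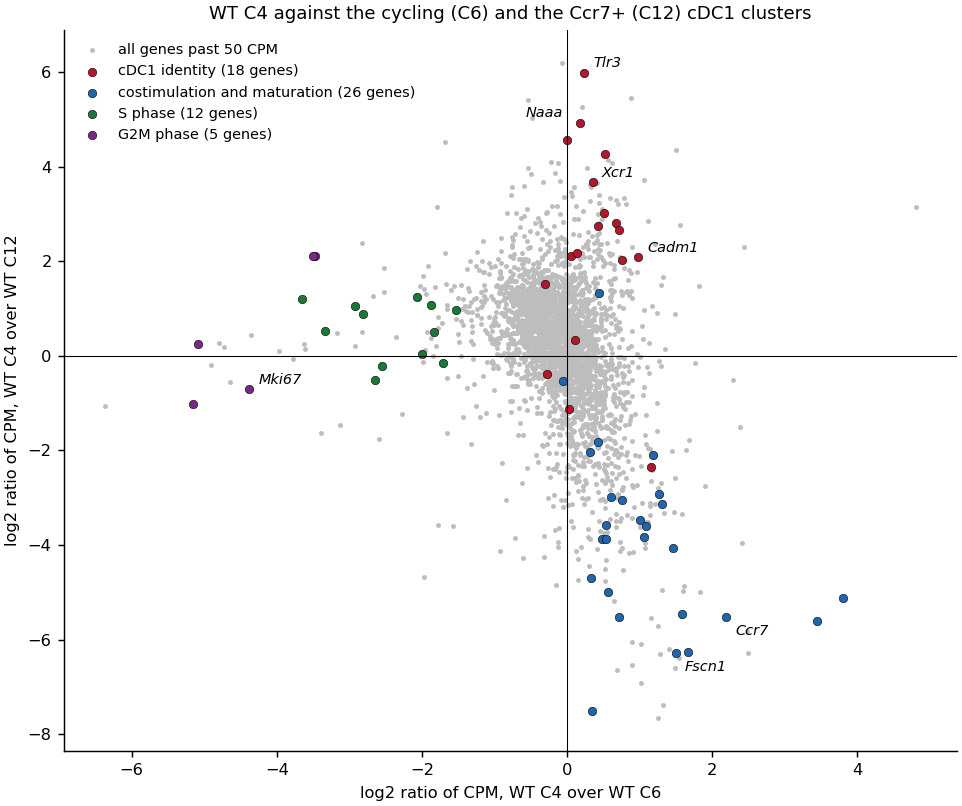
Log2 ratio of CPM in WT C4 over WT C6 (x axis) and over WT C12 (y axis) for 2920 genes that reached a mean of 50 CPM in either comparison, with listed genes coloured. The 18 cDC1 identity genes spread little along the x axis and mostly lie above 2 on the y axis, the 26 costimulation and maturation genes mostly lie low on the y axis, and the 12 S phase and 5 G2M genes lie to the left.

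Against C0, the cDC2 cluster, 142 of 2537 genes (5.60%) were higher in C4 and 292 (11.5%) lower. The highest ratios were those of Gcsam (6.89), Xcr1 (6.81), Rab7b (6.76), P2ry14 (6.67), Cadm1 (6.62) and Irf8, at 1970 CPM against 21.3 (6.53). The lowest were those of the interferon-induced gene Ifitm1, at 7.14 CPM against 176 (-4.62), Sh2d1b1 (-4.52), Sirpb1a (-4.45), the Notch target Dtx1 (-4.42), Cd7 (-4.31) and the lectin gene Clec4a2 (-4.25). C17 and C18 were small, with 90 and 76 WT cells. C17 cells were shallow, with a median of 2348 UMIs and 13.7% mitochondrial UMIs against 4.18% in C4, and 814 of 2351 genes (34.6%) were higher in C4 and 524 (22.3%) lower. The lower ones were led by Gm26870 (-6.04), Gm26917 and Lars2 (-4.80). Of 1917 genes compared with C18, 358 (18.7%) were higher in C4 and 12 (0.626%) lower. The stress and early response genes Jun, at 857 CPM against 22.2, Hspa1a (5.24), Fosb (4.97) and Fos (4.72) were among the highest, and Hbb-bs at 113 CPM against 3065 was among the lowest.

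The adt counts did not enter the clustering and give a separate view of the surface. The 11 rows carry no antibody names, so a row was named only where it and an antibody's gene matched each other best across WT cells outside C4. This gave CD4 (r = 0.40) and CD8A (0.62). Row 9 matched Sirpa (0.31), the gene of CD172A, but Sirpa matched row 4 nearly as well (0.30) and no row in Batf3-/- cells, so row 9 is called by its number. Row 8 matched Xcr1 (0.59) but Cd24a nearly as well, and in Batf3-/- cells it matched Cd24a (0.48), so it is called by its number, as is row 10, which had no match. CD8A had a median in C4 of 122 counts per cell against 80 in C6, 97 in C12 and 41 in C0. In C4 72.8% of cells (70.9 to 74.6) lay above 83 counts, the 95th percentile of WT cells outside the cDC1 clusters, against 47.1% in C6, 65.2% in C12 and 1.73% in C0. Row 9 was lower, with a median of 23 against 35 in C0, and 0.908% of C4 cells lay above its 95th percentile of 58 counts. CD4 was at 27 against 38 in C0, with 0.636% of cells above 68 counts.

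Row 8 separated C4 and C6 from C12, with medians of 131, 138 and 70 counts and 34 in C0. Above its 95th percentile of 85 counts lay 85.6% of C4 cells, 85.8% of C6 cells and 28.9% of C12 cells. Row 10 had medians of 47 in C4, 38 in C6, 38 in C12 and 27 in C0, and 62.6% of C4 cells lay above 42 counts. Within C4, the CD8A tag followed its transcript. The median was 47 counts in the 223 cells with no Cd8a UMI, 88 in 479 cells with 1 to 3 UMIs, 130 in 908 cells with 4 to 9 and 152 in 592 cells with 10 or more. Over the 2202 cells r was 0.52, and the cells share a library and differ in tag depth, with which CD8A correlated at 0.63. Row 8 and Xcr1 had r = 0.05 within C4. Row 8 may be the tag of CD24 rather than of XCR1, and its r with Cd24a within C4 was not taken. The value is therefore not a comparison of XCR1 with its transcript. Of the 1603 cells above the CD8A threshold, 201 (12.5%) had at least 35 counts of row 9, the median of WT cells outside the cDC1 clusters.

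**Figure D4:**
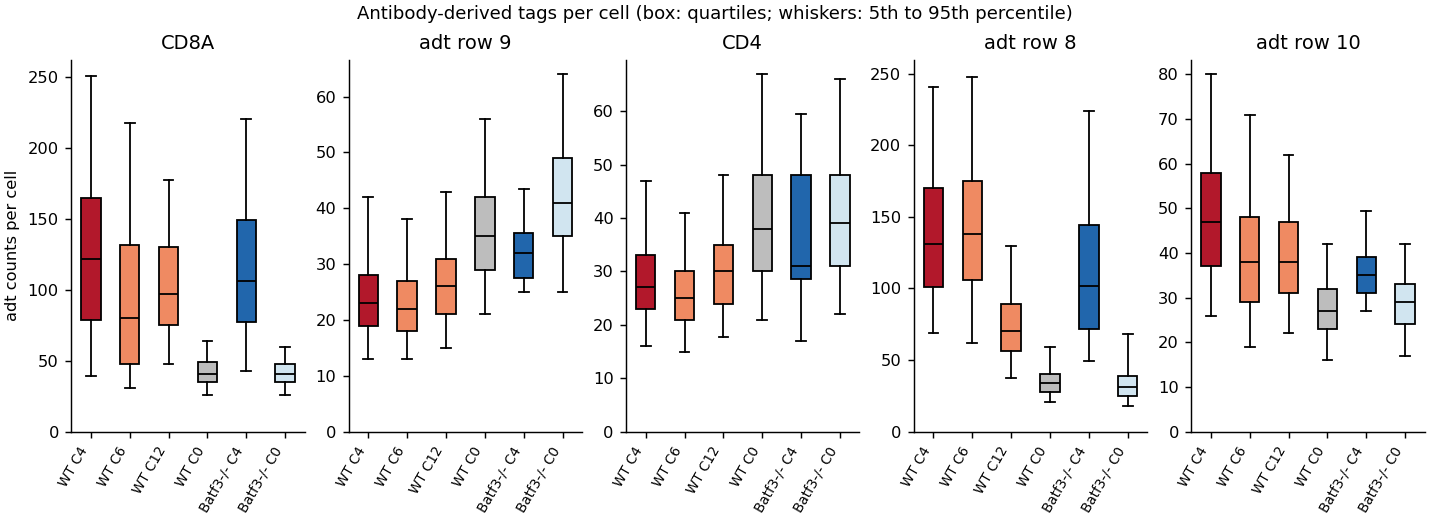
Adt counts per cell for CD8A, CD4 and rows 8, 9 and 10 in WT C4, C6, C12 and C0 and in Batf3-/- C4 and C0 (box for quartiles, line for the median, whiskers from the 5th to the 95th percentile). The CD8A medians of WT C4 (122) and Batf3-/- C4 (106) lie well above those of C0 (41 in both libraries).

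A UMI of some cDC1 genes was found in only a part of the C4 cells, as counted after thinning 2153 cells to 5000 UMIs. At this depth a cell without a UMI may still express the gene, so these shares do not show that cells differed. A Cd207 UMI was present in 16.7% of cells and an Itgae UMI in 14.03%, against 0.302% and 0.415% of C0 cells, and before thinning these shares were 31.1% and 29.6% in C4 and 0.315% and 0.504% in C0. Cd207 was found in 23.8% (19.1 to 29.1) of the cells with an Itgae UMI and in 15.5% (13.9 to 17.2) of those without. Itgae was found in 16.4% (14.5 to 18.4) of cells with a Cadm1 UMI and in 8.99% (6.96 to 11.4) of those without. These shares are over cells of 1 library, which are not replicates, and are descriptions with no test. Ccr7 was found in 5.35% (4.38 to 6.47) of cells with an Xcr1 UMI and in 15.8% (11.6 to 20.7) of those without. Havcr2 was found in 66.5% (63.8 to 69.2) of cells with a Btla UMI and 60.5% (57.3 to 63.6) without, and Tlr11 in 36.9% (33.6 to 40.3) of cells with a Tlr3 UMI and 30.02% (27.6 to 32.6) without. Itgb7, the integrin chain that pairs with Itgae, was found in 33.8% (28.5 to 39.4) of cells with an Itgae UMI and 39.8% (37.6 to 42.1) without. With and without the second gene, the shares were 77.2% and 77.0% for Cd8a with Cd36, 77.9% and 74.4% for Clec9a with Xcr1, 14.6% and 11.9% for Itgae with Cd8a and 1.69% and 2.43% for Itgam with Cd8a.

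Cxcl9 was the most uneven of the leading genes. In C4 67.7% of cells held a UMI of it, 50.5% after thinning, against 3.56% and 2.49% in C0. The median C4 cell had 2 UMIs, the 95th percentile was 39 and the highest cell had 373. Ccr7, in contrast to C12, where 94.7% of cells held a UMI (97.3% thinned, over the 257 of 394 cells deep enough), was found in 11.7% of C4 cells (6.64% thinned), against 7.43% (5.24%) of C0 cells. The cells labelled S and G2M within C4 expressed less of the cycle genes than C6. The S phase list summed to 380 CPM in C4 cells labelled G1, 1268 in those labelled S and 2545 in all of C6, and the G2M list to 47.0 in cells labelled G1, 655 in those labelled G2M and 1260 in C6.

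The Batf3-/- library had 31 cells in C4, 0.256% (0.174 to 0.363) of its 12119 cells, with 470604 UMIs in all and a median of 14220 UMIs per cell. Their reference label was again DC for all 31, and 18 (58.1%) matched the CD8+ reference. Batf3 was read as 1 UMI in 1 cell, 2.12 CPM against 238 in WT C4. The 4 markers were present at lower levels, and all 4 were found in 15 of the cells (48.4%, 30.2 to 66.9), 3 in 9 and 2 in 7. Every cell held at least 2 of them. Xcr1 ran from 0 to 10 UMIs with a median of 4, against a median of 7 in WT, and was at 259 CPM (215 to 310), a log2 ratio of -0.97. Clec9a ran from 1 to 11 with a median of 3 against 5, a ratio of -0.58. Cadm1 ran from 0 to 8 with a median of 1 against 4, a ratio of -1.13. Naaa ran from 0 to 13 with a median of 2 against 15, and at 172 CPM against 1060.5 it had a ratio of -2.62 (-2.96 to -2.31). Of the 4 markers, Naaa was furthest from its WT level and Clec9a nearest. The mutant cells of C6 were lower still, with Xcr1 at 45.7 CPM, Clec9a at 82.1, Cadm1 at 12.3 and Naaa at 98.9.

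Of 2417 genes, 51 (2.11%) were at least 2-fold higher in mutant than in WT C4 and 45 (1.86%) lower, with a median log2 ratio of 0.10 and the middle 90% from -0.62 to 0.73. Of 20 listed cDC1 identity genes 17 passed, with 9 lower, 0 higher and a median of -1.10. The 9 include Batf3 itself, the mutated gene, and 8 of the other 16 were lower. Of the 9, Batf3, Gcsam and Snx22 passed through WT C4 alone, and members of the list that did not pass were not counted. Gcsam had no UMI in the 31 cells, which makes it at least 16.2-fold lower against a floor of 3 counts over the 31 cells, and Snx22 had a ratio of -2.06. Mycl was at 36.1 CPM against 145 (-2.01), Flt3 at 76.5 against 168 (-1.13), Ppt1 at 748 against 1604 (-1.10), Wdfy4 had -1.10 and Rab7b -1.06. Pdia5, a protein disulfide isomerase, had -2.74, Rasgrp3 -2.40 and the pseudokinase gene Trib1 -2.09. Mycl and Pdia5, the latter at 19.1 CPM in the mutant cells, were also among the genes that passed through WT C4 alone. Others of the list were nearer to WT. Irf8 was at 1439 CPM against 1970 (-0.45), Id2 had -0.15, Cd24a 0.18 and Cd8a was at 521 against 442 (0.24). Cst3 had a ratio of 0.17. Cxcl9 had 0.09, but 135 of its 304 UMIs came from 1 mutant cell, and without that cell the ratio was -0.73. Hbb-bs had no UMI either, and the 5 listed erythroid genes summed to 2.12 CPM. No fold is given for Hbb-bs, since 7.95% of WT C4 cells held a UMI of it and 1 of them held 2105 of the 3858.

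Of 20 listed cDC2 genes 7 passed, with 4 higher in mutant C4, 0 lower and a median of 1.73. Cd209a and Tmem176a, the latter at 187 CPM against 47.4, passed through the mutant cells alone. Members of the list that did not pass were not counted. Cd209a was at 106 CPM against 14.7 (2.86), with UMIs in 14 of the 31 cells, and without the highest cell the ratio was 2.54. Tmem176b was at 240 CPM against 56.9 (2.08) with UMIs in 24 cells, Tmem176a had 1.98, and Ltb was at 236 against 71.3 (1.73). Klf4 was at 119 CPM against 59.6, a ratio of 1.00 that lay just under the 2-fold limit. S100a4 had 0.39 (-0.0058 to 0.76), and Clec12a went the other way, at 93.5 CPM against 138 (-0.56). Sirpa, below the minimum, was at 36.1 CPM against 16.4, with UMIs in 6 cells. Beyond the list, the NADPH oxidase gene Cybb (2.04, 22 cells), the prostaglandin-degrading enzyme gene Hpgd (3.17, 18 cells), Serpinb2 (2.72, 20 cells), Ms4a4c (2.35, 22 cells) and Vim (1.49) were higher. Of these, all but Vim passed the minimum through the mutant cells alone. Some high ratios rested on 1 cell. All 117 UMIs of Ccl17 and 91 of 95 of Fabp5 came from a single cell each, and Hmox1 went from 2.50 to 1.44 without its highest cell. None of 13 MHC class II genes and 9 Toll-like receptor and adaptor genes was 2-fold apart.

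The summed cDC2 list was at 1309 CPM in the mutant C4 cells and 618 in WT C4, and stayed below the 4211 of WT C0. The summed cDC1 list was at 5134 against 8979, and 1112 in WT C0. The monocyte list was at 472 CPM against 532, the pDC list at 193 against 218 and the NK cell list at 19.1 against 33.2, and the T cell and neutrophil lists had no UMI. The B cell list was higher, at 76.5 CPM (53.6 to 106) against 33.4, on 36 UMIs, and its part in the other values was not tested. On the surface, CD8A had a median of 106 counts against 122 in WT C4, and 67.7% of the cells (48.6 to 83.3) lay above 83 counts. Row 9 was at 32 against 23, and at 41 in Batf3-/- C0. Row 8 was at 102 against 131, with 61.3% (42.2 to 78.2) above its threshold, and row 10 was at 35 against 47, with 12.9% (3.63 to 29.8) above its threshold where WT C4 had 62.6%. The size of these differences, and for CD8A and row 8 the direction, depends on the scaling of the tags. On the deposited normalized adt scale, CD8A had a higher median in mutant than in WT C4, 1.21 against 1.15, with 80.6% (62.5 to 92.5) of mutant cells above the threshold. Row 8 had 1.26 against 1.24, with 83.9% (66.3 to 94.5) above, and row 9 had 0.577 against 0.549. Row 10 was lower on this scale too, at 0.792 against 0.907, with 29.0% (14.2 to 48.0) above. Scrublet marked 2 of the 31 cells, and with marked cells left out on both sides 63 genes were higher and 47 lower. With 1 library per genotype, the genotype and the library cannot be told apart.

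**Figure D5:**
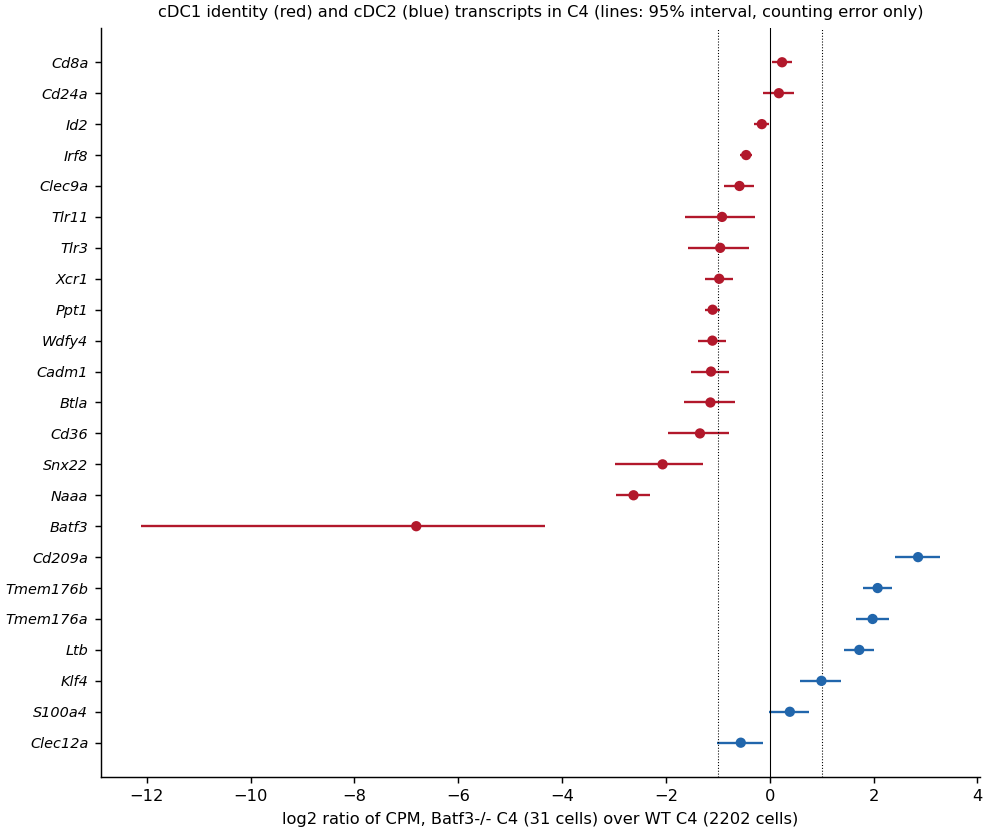
Log2 ratio of CPM in Batf3-/- C4 (31 cells) over WT C4 (2202 cells) for 16 cDC1 identity genes (red) and 7 cDC2 genes (blue) that passed the minimum, with lines for the 95% interval of counting error. Gcsam, with no UMI in the mutant cells, is not drawn. Naaa lies at -2.62 and Cd8a at 0.24, and Cd209a, Tmem176b, Tmem176a and Ltb lie beyond the 2-fold line.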

How the data were processed

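Per the labels, the authors sequenced 10x Genomics libraries with antibody tags, and the submitters' processing notes name Cell Ranger, bcl2fastq 2.2.0, Seurat 3.0.5 and the builds GRCm38 and mm10. The authors deposited raw counts (UMIs per gene and cell, and tag UMIs per adt row and cell). They also deposited normalized RNA and adt values on a natural log scale, the mitochondrial and ribosomal fraction of each cell's UMIs, the S and G2M score, cluster numbers and reference labels. The deposited totals equalled the summed counts in 24343 of 24343 cells. Raw counts were used throughout, and the normalized adt values only as an alternative.

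The level of a gene is its summed UMIs over all UMIs of a cluster and library, as CPM, with an exact Poisson 95% interval. Between 2 sides the log2 of the quotient of the CPM values is given, its limits taken from the exact conditional (binomial) distribution of the counts, and shares carry Clopper-Pearson intervals. Genes that averaged 50 CPM or more over both sides (between genotypes also at least 20 UMIs) were counted at 2-fold. A gene with no UMI on a side is bounded from a floor of 3 counts. For thinned shares and for the spread between cells, 5000 UMIs per cell were drawn without replacement. Doublets were marked with Scrublet in scanpy at an expected rate of 0.1 per library and kept in the main values; it marked 1858 of 12119 Batf3-/- cells. An adt row was named where it and an antibody's gene were each other's highest Pearson r over WT cells outside C4, with r of at least 0.2. This rule gave XCR1 for row 8 and CD172A for row 9, which were left unnamed for the reasons given above. The tools were scanpy 1.11.5, pandas 2.3.3, scipy 1.17.1, numpy 2.4.6 and matplotlib 3.10.9 under Python 3.11.15, and the intervals and the thinning were tested on simulated data.

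Samples were grouped by genotype from the labels and cells by the deposited clusters. With 1 library per genotype no test was possible between genotypes, and none was made between cells. The named genes were the 4 markers, members of role lists by level and ratio, the leading genes of each comparison in rank order, the 20 genes with the widest spread between cells, and fixed pairs. The members and lists were chosen with earlier results of these data known, and some genes are in several lists. The rule allowed up to 8 members per list, and members beyond that (such as Psmb9, Tap1, Tap2, Cyba, Tlr5 and Cxcr3), Vim in its ratios and the genes with their highest level in C4 were named after their values were seen. Positions are those of the GENCODE M21 annotation. The other 6 adt rows, RNA velocity and the authors' lists of differential genes were not used here. Some listed genes are not reported here.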

Additional observations from a re-analysis of the deposited data

How the results depend on the processing

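No paired analysis was possible because each genotype is 1 library. Of 77 values under an alternative, 46 stayed within 1.5 times the main count or within its interval and 31 moved. The share of WT C4 cells above the CD8A threshold is among the 46, but the normalized adt scale keeps the order of WT cells, so that share could not change, whereas the values of Batf3-/- C4 did, as given above. Leaving out Scrublet doublets moved the share of C4 in the WT library from 18.01% to 16.8%. The counts depend mainly on the minimum level and the fold. At a minimum of 10 CPM, and with no minimum beyond 1 UMI, the genes higher in C4 than in the other WT cells went from 89 to 239 and 757 and those lower from 219 to 768 and 3296. The same minimums gave 112 and 623 higher and 481 and 1339 lower against C6, 1456 and 2519 higher and 1002 and 1953 lower against C12, 336 and 564 higher and 233 and 288 lower in Batf3-/- C4, and 79 and 304 genes with their highest level in C4. At 3-fold, 39 genes were higher and 100 lower than in the other WT cells, 6 and 62 against C6, 182 higher against C12, 15 and 14 in Batf3-/- C4, and 0 led the next cluster. With mitochondrial and ribosomal protein genes out of the total, which also raises the number of genes past the minimum, 53 genes were higher than in C6 and 751 than in C12. With G1 cells only, 53 were higher than in C6. Thinning to 2000 UMIs left 40 genes with a variance of at least 2 times the mean. Leaving out 1 of the 31 Batf3-/- cells in turn, an alternative chosen after seeing the data, gave 42 to 55 genes higher and 44 to 50 lower. Depth limits mutant C4, with 470604 UMIs, and WT C17, with 233503 UMIs, where a gene at 50 CPM rests on few UMIs, and animals within a pool cannot be separated.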

Other observations

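Interferon-stimulated and cytoskeletal genes of WT C4 were also compared with the other WT cells. Of 23 measured interferon-stimulated genes 5 passed the minimum, with 1 higher and 1 lower and a median log2 ratio of 0.18, where 3.49% of all 2553 genes were higher and 8.58% lower. Over all 23, 1 was higher and 11 lower, with a median of -0.95, where 4.80% and 20.9% of 15785 genes with no minimum level were. Ifi205, a DNA-sensing family member, was at 180 CPM against 54.4, and Isg15, a ubiquitin-like modifier, at 52.7 against 113. Of 23 actin and cytoskeleton genes, 1 was higher and 2 lower, counts near the 3.49% and 8.58% of all genes past the minimum, with a median of -0.24. Fgd2, an activator of Cdc42, was at 259 CPM against 126, and Fscn1 and Rac2 were the lower genes. Tmsb4x, which binds free actin, was at 46640 CPM (0.56) and Actb at 13796 (0.15).

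The spread between C4 cells was measured as the Fano factor, the variance of the UMIs over their mean, in 2153 cells thinned to 5000 UMIs. Of 4762 genes with a mean of at least 0.1 UMIs, the median was 1.05, the 95th percentile 1.62, and 142 (2.98%) reached 2. The highest value, 497, belonged to Jchain, a plasma cell gene, of which 99.4% of the UMIs lay in 1% of the cells. Hbb-bs followed at 224, with 93.7% of UMIs in 1% of cells. Malat1, a nuclear RNA, had 124 and was found in nearly all cells, with a median of 163 UMIs. Cxcl9 had 21.5 and ran from 0 to 13 UMIs over the middle 90% of cells, up to 111, with 20.9% of UMIs in 1% of cells. Cxcl10, another Cxcr3 ligand, had 17.8 and was more concentrated, with 64.2% in 1% of cells. Il1b had 9.41, Apol7c 9.38, Vim 9.07 and the heme-degrading enzyme gene Hmox1 9.05. Of the 20 genes with the widest spread, 15 were again among the top 20 after thinning to 2000 UMIs and 18 without the marked doublets. The exceptions without doublets were Jchain, which no longer reached the minimum mean, and Ccl5, which went from 15.8 to 3.27.

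Across these 2153 cells, which share a library, Cxcl9 and Cxcl10 had r = 0.39, Cxcl9 and Apol7c 0.38, Malat1 and Apol7c 0.39, Cst3 and Apol7c 0.30, and Apol7c and Vim -0.32. The globin genes had r from 0.81 to 0.86 with each other. These are descriptions with no test.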
